A study of Rattus norvegicus with 6 samples.

Results

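The mitochondrial ribosomal protein genes were taken as the lines of the deposited gene table whose gene name begins with Mrpl or Mrps followed by a number. The rule found 76 lines of 32883, which carry 75 symbols because Mrps21l stands on 2 lines. Of these, 45 lines were named for the large subunit (Mrpl) and 31 for the small subunit (Mrps). RNA was sequenced from myocardial tissue of 3 diet-induced obesity-prone (OP) rats fed a high-fat diet for 12 months and of 3 obesity-resistant (OR) rats fed standard chow for 12 months. Both lines have a Sprague Dawley background, and the tissue pieces were randomly chosen, 1 library per rat. Line and diet differed together between the groups, so their effects cannot be told apart.

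Mitochondria carry their own ribosome, which translates the few proteins encoded by mitochondrial DNA, all of them parts of the respiratory chain and of ATP synthase. Its RNAs come from mitochondrial DNA, while its proteins come from nuclear genes, are made in the cytosol and are imported. Heart muscle is rich in mitochondria and draws most of its ATP from oxidative phosphorylation, and inherited defects of several of these proteins cause cardiomyopathy in humans.

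Expression is given in counts per 1000000 reads (CPM), which is the deposited value over 20. Reads behind each value were recovered from the steps between values, and the libraries held 10838184 to 12831577 reads assigned to genes, so that 3 reads stood for 0.234 to 0.277 CPM. OP replicate 2 stood apart: after rescaling between libraries by trimmed means (TMM) it was the highest of the 6 libraries in 26.8% of all tested genes and the lowest in 27.9%, against 12.3% to 16.2% and 12.6% to 16.0% in the other libraries. The cardiomyocyte markers summed to 42630 to 44740 CPM in OP rats and 43250 to 46540 CPM in OR rats. Of all 13445 genes tested with limma, 197 were called higher and 256 lower at an adjusted p under 0.05. The higher calls were 43.5% of these calls, 33.1% without rescaling, and 64.3%, 50.6% and 58.3% of far fewer calls without OR replicate 1, 2 or 3.

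Of the 76 lines, 71 reached 1 CPM in at least 3 libraries and were tested, 42 named Mrpl and 29 named Mrps. Their mean level ran from 20.5 to 259 CPM with a median of 56.4 CPM, and each library held 206 to 3544 reads for each of them. Levels of different genes are not ranked here as abundance, because CPM is not divided by transcript length. The other 5 lines were at or near 0. Mrpl1, a protein with a bacterial counterpart, stood at 0.35, 0.2 and 0.25 CPM in OP rats and 0.1, 0.2 and 0.2 CPM in OR rats. Mrpl36 was at 0.1 CPM in OP replicate 2 and listed at 0 in the other libraries, the lines of Mrps21l held 0 to 0.2 CPM, and Mrpl53 was listed at 0 in all 6 libraries. In the GRCr8 annotation Mrpl36 overlaps Ndufs6, and Mrpl1 has 2 named pseudogenes. Values near 0 on these lines do not show that the genes are silent, and the part of read assignment or annotation was not tested.

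The tested members differed from OR to OP rats by small amounts and mostly in 1 direction. The log2 fold change, OP over OR, was above 0 in 61 of 71 members (85.9%), against 50.0% of all tested genes. Its median was 0.16 over the members (1.12-fold) and 0.0 over all tested genes. The middle of the distribution was narrow, with quartiles of 0.09 and 0.25 and a range from -0.33 to 0.42. No member differed by more than 0.5 in either direction on the log2 scale, a size that 11.9% of all tested genes passed.

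**Figure D1:**
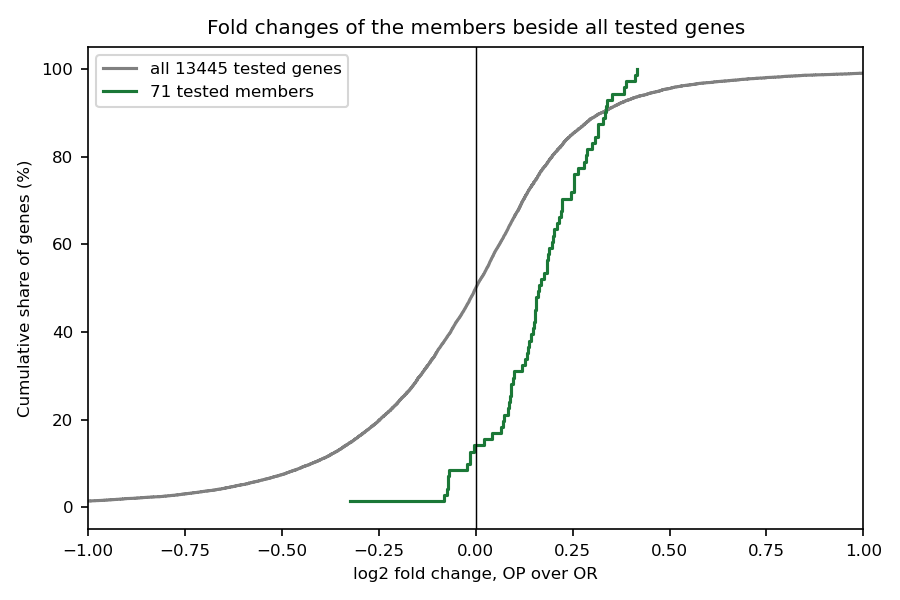
Cumulative share of genes (%, y axis) by log2 fold change, OP over OR (x axis, shown from -1 to 1) for the 71 tested members (green) and all 13445 tested genes (grey). The green curve lies to the right of the grey one up to about 90% of the genes and ends at 0.42, with 85.9% of the members above 0.

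A single member passed the adjusted threshold. Mrps2 was called higher in OP rats and 0 members were called lower, where 1.47% and 1.90% of all tested genes were called in these directions (3.37% in either). Voom on the recovered reads gave the same counts of 1 and 0. With a limma p under 0.05 before adjustment, 30 of 71 members were higher and 1 was lower (42.3% and 1.41%), beside 10.4% and 12.0% of all tested genes. After TMM rescaling every OP rat lay above every OR rat in 39 members and below in 1, Mrps26, beside 15.0% and 14.5% of all tested genes. Without rescaling these counts were 31 and 1, beside 10.4% and 17.7%. For single genes below, overlap between groups is stated on CPM without TMM rescaling.

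The call of a single member rested on the choice of libraries and settings, while the share of members above 0 changed little. Without OP replicate 2, 4 members were called, Mrps2, Mrpl44, Mrps9 and Mrps27, and leaving out any other library gave 0. Over the same 6 refits, 59 to 65 of 71 members had a log2 fold change above 0, and the median over members was 0.15 to 0.19. The number higher at an unadjusted p under 0.05 fell from 30 to 14 without OR replicate 2 and to 18 without OR replicate 1.

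Summed over the 71 tested lines, the members took 5276, 5307 and 5235 CPM in OP replicates 1, 2 and 3 and 4870, 4684 and 4865 CPM in OR replicates 1, 2 and 3. The groups did not overlap, and the OP mean of 5273 ± 36.1 CPM (SD, n = 3) was 109.7% of the OR mean of 4806 ± 106 CPM (n = 3). After TMM rescaling the OP mean was 113.4% of the OR mean, with 5205 to 5568 CPM in OP rats and 4579 to 4847 CPM in OR rats. In bulk tissue, fewer cells of a type and less RNA per cell cannot be told apart.

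The rats of a group were not alike over the members. Relative to the OR mean, the median member stood at 0.15, 0.23 and 0.13 on the log2 scale in OP replicates 1, 2 and 3 and at 0.01, -0.04 and 0.03 in OR replicates 1, 2 and 3. These values are after TMM rescaling, which holds the median of all genes near 0, here between -0.007 and 0.006. OP replicate 2 was the highest of the 6 libraries in 42 of 71 members and OP replicate 1 in 18. OR replicate 2 was the lowest in 34, where it was the lowest in 16.0% of all tested genes. The coefficient of variation over the members had a median of 6.86% in OP and 4.63% in OR rats, and over all tested genes it was also higher in OP rats, at 12.3% against 8.77%.

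**Figure D2:**
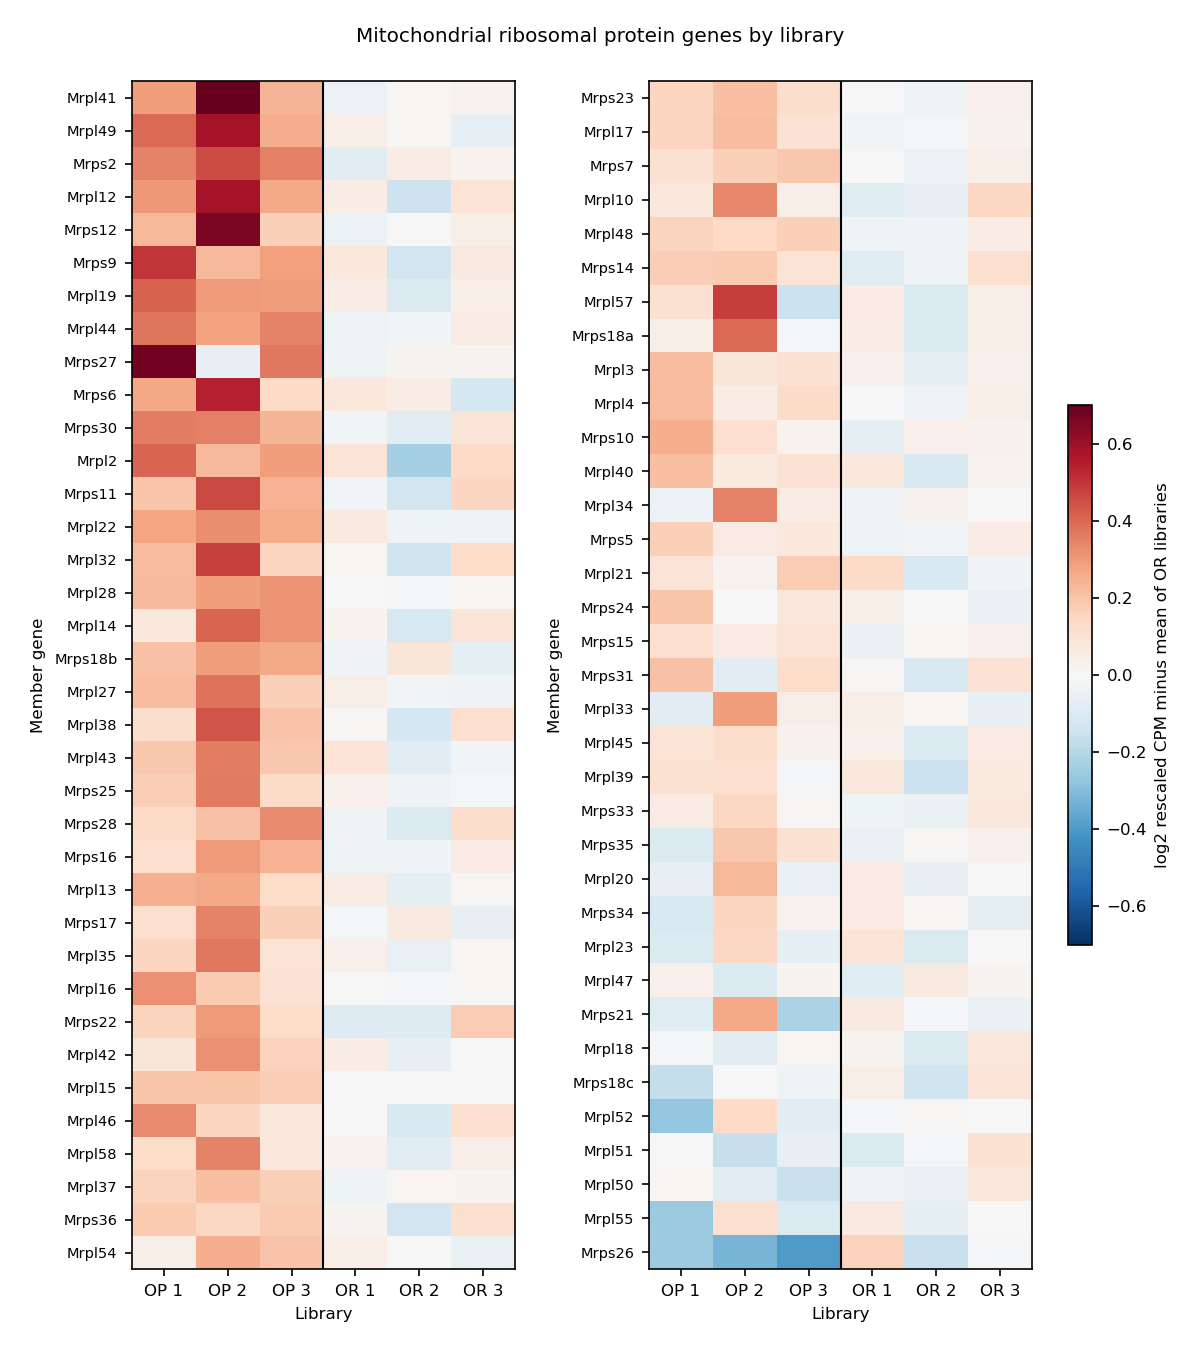
Log2 rescaled CPM of each tested member (rows, ordered by fold change) in each library (columns), minus the mean of the OR libraries, with red above and blue below that mean. OP columns are red in most rows, OP replicate 2 is the highest library in 42 of 71 members, and Mrps26 in the last row is blue in all 3 OP rats.

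The small subunit binds the messenger RNA and reads its codons. Mrps2 (ENSRNOG00000010164), the mitochondrial counterpart of bacterial ribosomal protein S2, stood at 67.3, 69.8 and 68.5 CPM in OP rats and 51.7, 56.5 and 54.4 CPM in OR rats. All 3 OP rats lay above all 3 OR rats, and the groups were separated by more than either group's range. Mrps2 rose by a log2 fold change of 0.39 (SE 0.0783, 95% interval 0.21 to 0.57, limma adjusted p = 0.0416), from 54.2 ± 2.38 to 68.6 ± 1.25 CPM. Its adjusted p was 0.0731 with a replicate block, 0.0544 without rescaling and 0.0377 to 0.166 when a library was left out. In the GRCr8 annotation the span of Mrps2 overlaps that of Pierce1, and reads from the overlap cannot be assigned to either gene with certainty because no source used here gives the strand setting of the counting.

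Mrps9, the counterpart of bacterial S9, stood at 140, 111 and 122 CPM in OP rats and 107, 92.6 and 104 CPM in OR rats. Groups stayed apart, but OP replicate 2 came close to OR replicate 1. The log2 fold change was 0.34 (SE 0.0985, limma adjusted p = 0.105), and 0.39 with an adjusted p of 0.0488 without OP replicate 2. Mrps18b, a member of the S18 family that sits in the small subunit, stood at 166, 169 and 174 CPM in OP rats and 145, 157 and 139 CPM in OR rats. The groups did not overlap, and the log2 fold change was 0.25 (SE 0.0724, limma adjusted p = 0.099).

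Mrps26, a small-subunit protein with no bacterial counterpart, differed in the opposite direction. It stood at 35.4, 32.3 and 32.4 CPM in OP rats and 48.6, 39 and 42.4 CPM in OR rats, so that every OP rat lay below every OR rat. Its log2 fold change was -0.33 (SE 0.103, 95% interval -0.56 to -0.09), and it missed the threshold with a limma adjusted p of 0.123. The other 9 of the 10 tested small-subunit proteins specific to mitochondria had log2 fold changes above 0.

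The small-subunit members with the lowest CPM showed little difference. Mrps10, the counterpart of bacterial S10, stood at 23.2, 20.2 and 20 CPM in OP rats and 19.1, 20.5 and 20 CPM in OR rats, with a log2 fold change of 0.13 (SE 0.102, limma adjusted p = 0.475). The groups overlapped. Mrps33, specific to mitochondria, had a log2 fold change of 0.07 (95% interval -0.14 to 0.28, limma adjusted p = 0.69) at 26.0 ± 0.525 CPM in OP and 25.6 ± 0.918 CPM in OR rats.

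The large subunit joins the amino acids and holds the tunnel through which the new protein leaves. Mrpl44, a large-subunit protein with a fold like that of ribonuclease III and a gene mutated in a human mitochondrial cardiomyopathy, stood at 74.8, 67.3 and 74.5 CPM in OP rats and 58.0, 58.8 and 60.5 CPM in OR rats. All OP rats lay above all OR rats, and OP replicate 2 was the lowest of them. Its log2 fold change was 0.33 (SE 0.0734, 95% interval 0.17 to 0.50) and its limma adjusted p of 0.0507 just missed the threshold. It was called with median-of-ratios factors (adjusted p = 0.049), with robust variances (adjusted p = 0.049) and without OP replicate 2 (adjusted p = 0.0293).

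Mrpl28, the counterpart of bacterial L28, stood at 110.3, 110.4 and 118.5 CPM in OP rats and 96.8, 96.1 and 95.8 CPM in OR rats. The OR rats lay close together and all below the OP rats, and the log2 fold change was 0.28 (SE 0.0672, limma adjusted p = 0.0664). Mrpl19, the counterpart of bacterial L19, stood at 52.9, 46.8 and 49.3 CPM in OP rats and 42.4, 38.0 and 41.5 CPM in OR rats. These groups did not overlap either, with a log2 fold change of 0.34 (SE 0.0857, limma adjusted p = 0.0747). Mrpl22, which lines the exit tunnel, stood at 37.0, 36.8 and 37.0 CPM in OP rats and 32.9, 30.9 and 30.1 CPM in OR rats. Its OP rats were nearly identical and above all OR rats, with a log2 fold change of 0.29 (SE 0.0816, limma adjusted p = 0.099).

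Some members of the large subunit were added in the mitochondrial lineage and have no counterpart in bacteria. Mrpl49 stood at 37.2, 40.5 and 34.1 CPM in OP rats and 30, 29.2 and 27.4 CPM in OR rats. The groups did not overlap, and its log2 fold change of 0.41 (SE 0.104, 95% interval 0.17 to 0.65, limma adjusted p = 0.0725) was the second highest of the members. Mrpl41 had the highest, 0.42 (SE 0.128, limma adjusted p = 0.115), with 55.1, 71.0 and 53.8 CPM in OP rats and 45.05, 46.7 and 46.2 CPM in OR rats. OP replicate 2 was far above the other OP rats here, and the groups did not overlap. Mrps30 carries a small-subunit name but its protein lies in the large subunit. It stood at 53.4, 51.0 and 49.6 CPM in OP rats and 42.3, 40.6 and 44.8 CPM in OR rats, again with no overlap and a log2 fold change of 0.32 (SE 0.0848, limma adjusted p = 0.0857).

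The L7/L12 stalk of the large subunit recruits translation factors. Mrpl12, its mitochondrial L7/L12 protein, which in humans also binds the mitochondrial RNA polymerase, stood at 275, 321 and 271 CPM in OP rats and 238, 207 and 241 CPM in OR rats. OP and OR rats did not overlap, OP replicate 2 was the highest library and OR replicate 2 the lowest. Its log2 fold change was 0.38 (SE 0.107, 95% interval 0.14 to 0.63, limma adjusted p = 0.0961). Mrpl10, which anchors the stalk, had a log2 fold change of 0.15 (SE 0.107, limma adjusted p = 0.432) at 62.2 to 72.4 CPM in OP and 57.8 to 66.6 CPM in OR rats. Mrpl54, from the same list, had 0.16 (SE 0.0809, limma adjusted p = 0.273) at 102 to 115 CPM in OP and 96.2 to 105 CPM in OR rats. The groups of Mrpl10 and of Mrpl54 overlapped.

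**Figure D3:**
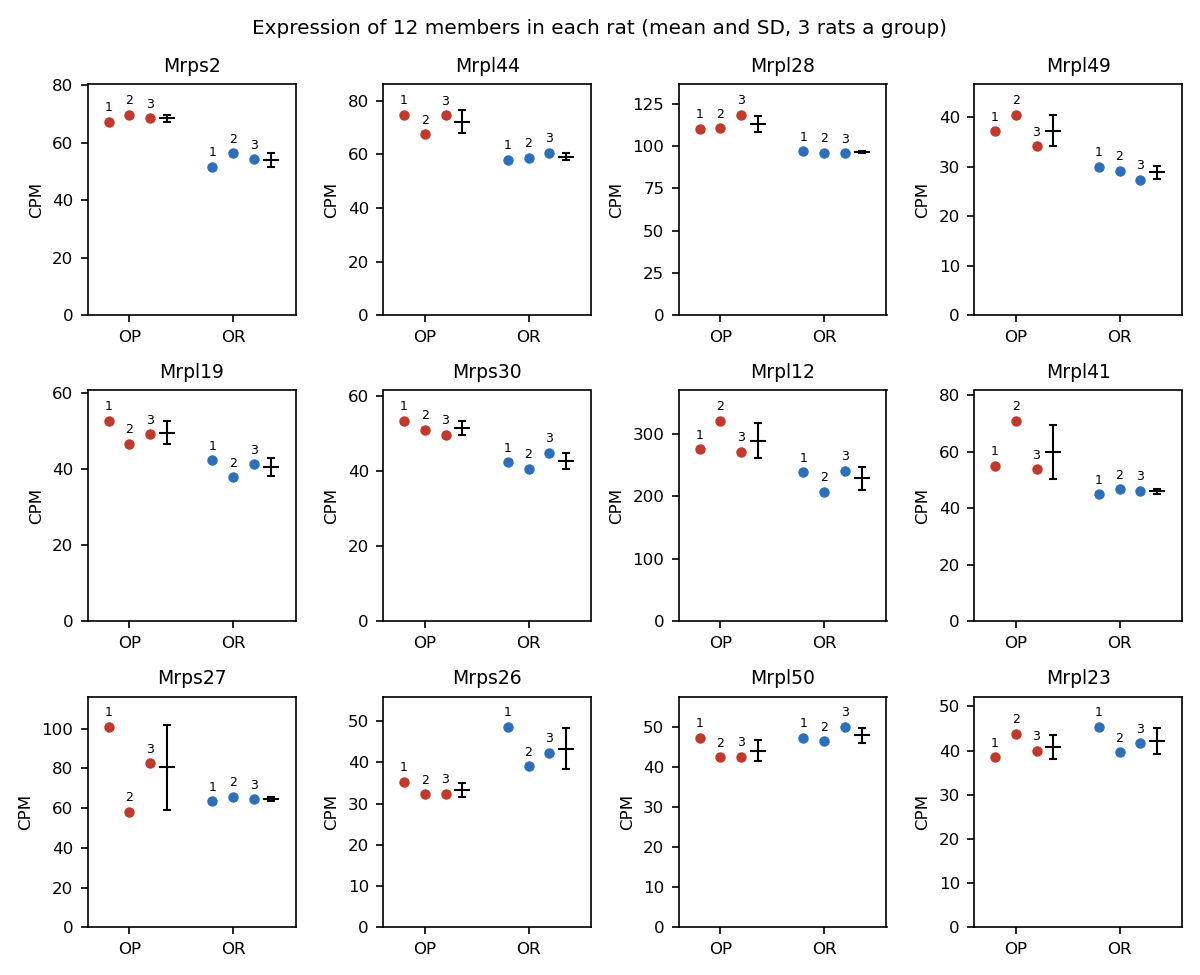
CPM (y axis, from 0) of 12 members in each rat, OP in red and OR in blue with the replicate number above each point, and mean ± SD of the 3 rats in black beside them. Groups lie apart in the first 8 panels, OP replicate 2 is below every OR rat in the Mrps27 panel, the OP rats of Mrps26 all lie below the OR rats, and the groups overlap for Mrpl50 and Mrpl23 (the panels of Mrps27 and Mrpl23 were chosen after their values were seen).

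Other members with high CPM had smaller differences than Mrpl12. Mrpl15, the counterpart of bacterial L15, stood at 177, 169 and 176 CPM in OP rats and 159, 159 and 156 CPM in OR rats. The groups did not overlap, and the log2 fold change was 0.19 (SE 0.0629, limma adjusted p = 0.139). Mrpl4, the counterpart of bacterial L4, had 0.14 (SE 0.0731, limma adjusted p = 0.312) with 149 to 175 CPM in OP and 151 to 156 CPM in OR rats, which overlapped. At the low end, Mrpl32, which is cut to its mature form by a protease of the inner membrane, had 0.28 (SE 0.12, limma adjusted p = 0.213), and Mrpl39 had 0.07 (SE 0.101, limma adjusted p = 0.708).

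After Mrps26, the lowest log2 fold changes were those of Mrpl55, Mrpl50 and Mrpl51, large-subunit proteins. Mrpl55 had -0.08 (95% interval -0.34 to 0.17, limma adjusted p = 0.701), and its sign turned to 0.007 without OP replicate 1. Mrpl50 stood at 47.2, 42.5 and 42.5 CPM in OP rats and 47.2, 46.4 and 50 CPM in OR rats, with a log2 fold change of -0.07 (95% interval -0.27 to 0.12, limma adjusted p = 0.648). Mrpl51 had -0.07 (95% interval -0.27 to 0.12, limma adjusted p = 0.654) at 84.5 to 98.8 CPM in OP and 94.6 to 107 CPM in OR rats. The groups of these members overlapped.

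**Figure D4:**
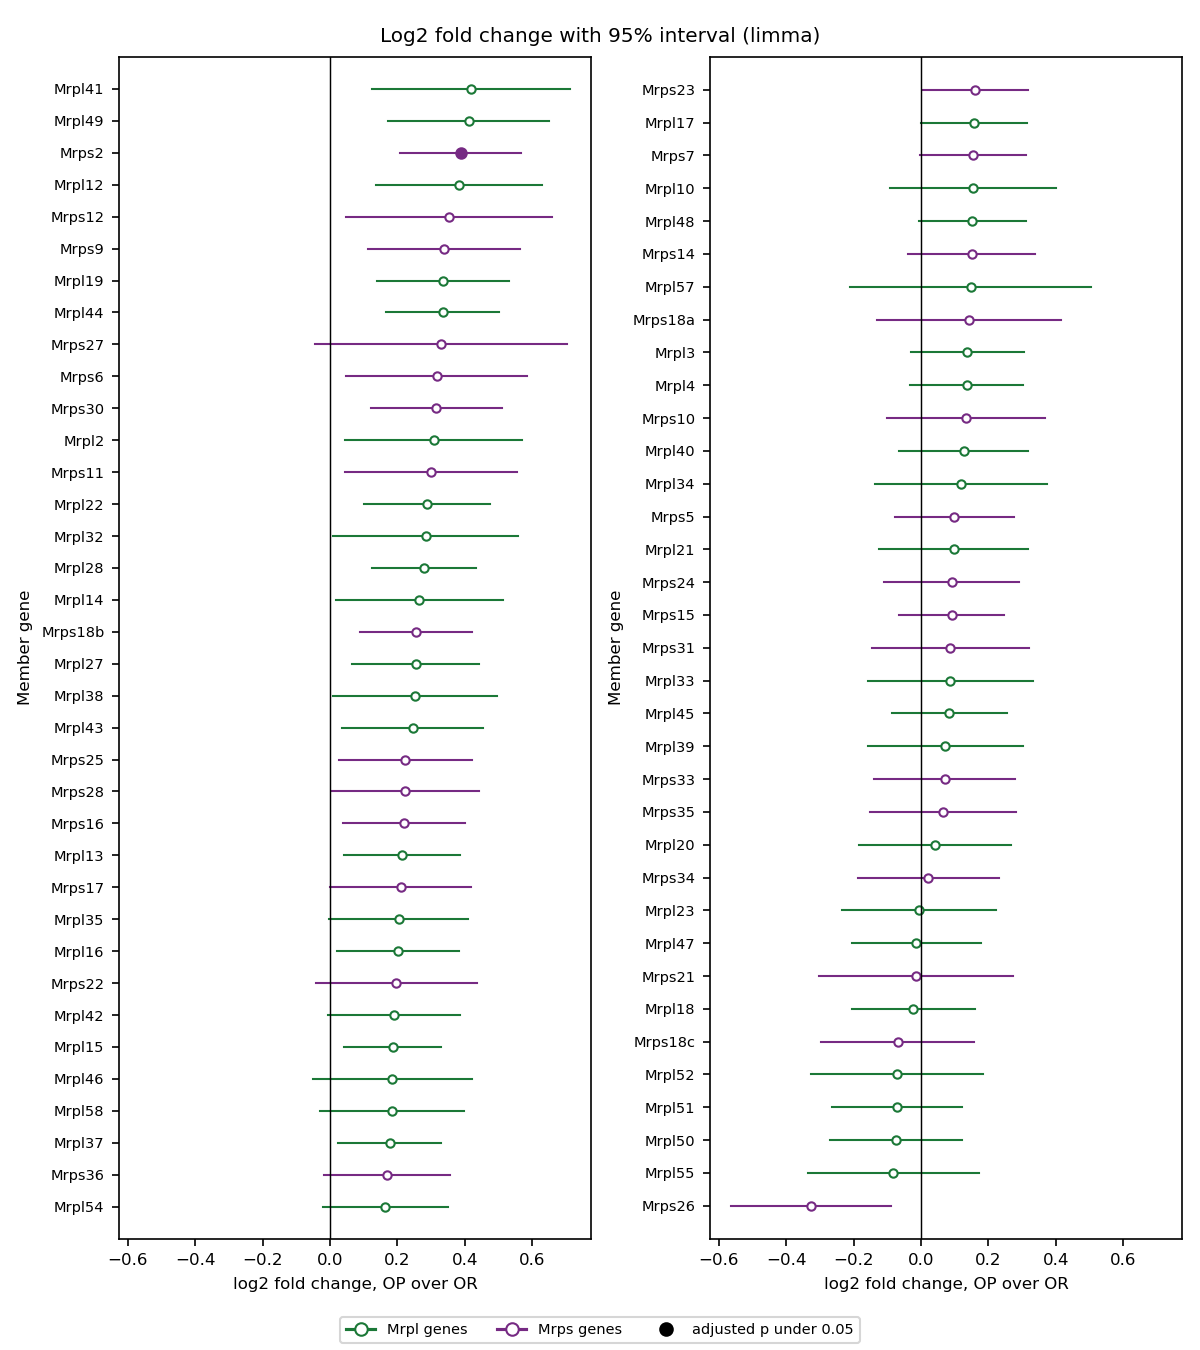
Log2 fold change, OP over OR (x axis), with its 95% interval from limma for each of the 71 tested members, ordered from the highest (top left) to the lowest (bottom right), green for Mrpl and purple for Mrps names. The only filled point is Mrps2 (adjusted p under 0.05), 61 points lie above 0, and Mrps26 is the only one whose interval lies wholly below 0.

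Mrps27 and Mrps12 are not among the members named by the rule given with the processing. They were picked out after their values were seen, because OP replicate 2 lay far from the other OP rats. Mrps27, a small-subunit protein of the pentatricopeptide repeat family that binds RNA, stood at 101, 58.3 and 82.5 CPM in OP rats and 63.5, 65.8 and 64.6 CPM in OR rats. OP replicate 2 was the lowest of the 6 libraries while OP replicates 1 and 3 were the highest, and the log2 fold change was 0.33 (SE 0.163, limma adjusted p = 0.276). Mrps12, the counterpart of bacterial S12 at the decoding site, stood at 35.3, 45.6 and 34.2 CPM in OP rats and 30.1, 30.9 and 31.2 CPM in OR rats. Here OP replicate 2 was by far the highest, and the log2 fold change was 0.35 (SE 0.133, limma adjusted p = 0.174). Over all tested members OP replicate 2 lay above both other OP rats in 43 and below both in 17.

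Grouped by place and origin, the members had similar medians. The 24 tested large-subunit proteins with a bacterial counterpart had a median log2 fold change of 0.17, with 20 above 0 and 12 higher at an unadjusted p under 0.05. For the 20 large-subunit proteins specific to mitochondria the median was also 0.17, with 17 above 0 and 7 higher. The 16 small-subunit proteins with a bacterial counterpart had a median of 0.18, with 14 above 0, 8 higher and Mrps2 called. For the 10 small-subunit proteins specific to mitochondria the median was 0.12, with 9 above 0, 3 higher and 1 lower. Differences between these groups were not tested. Mrps36, which was put in none of them because its protein is known as a subunit of 2-oxoglutarate dehydrogenase, had a log2 fold change of 0.17 (SE 0.0812, limma adjusted p = 0.261).

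Other nuclear genes of mitochondrial gene expression, from translation and ribosome assembly to transcription and DNA maintenance, had medians nearer to 0. Of 84 tested, 54 had a log2 fold change above 0 (64.3%), against 50.0% of all tested genes, and the median was 0.07. In these lists 1 was called higher and 0 lower, where 1.47% and 1.90% of all tested genes were called. Before adjustment 12 were higher and 2 lower at a limma p under 0.05 (14.3% and 2.38%), beside 10.4% and 12.0% of all tested genes. Voom also called 1 higher and 0 lower. The called gene was Tufm, the mitochondrial elongation factor Tu, which brings aminoacyl-tRNA to the ribosome. It stood at 446, 423 and 418 CPM in OP rats and 340, 327 and 320 CPM in OR rats, with no overlap. Tufm rose by a log2 fold change of 0.43 (SE 0.0685, limma adjusted p = 0.0198), and its adjusted p was 0.064 to 0.117 without OP replicate 1 or without any 1 of the OR rats.

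The list of translation factors also held related proteins that are not such factors, among them Oxa1l, Lrpprc, Slirp and Mtfmt. Oxa1l inserts new proteins into the inner membrane and binds the mitochondrial ribosome. It stood at 171, 178 and 184 CPM in OP rats and 148, 149 and 152 CPM in OR rats. The groups did not overlap, and the log2 fold change was 0.29 (SE 0.0688, limma adjusted p = 0.0622). Mtif3, the mitochondrial initiation factor 3, had 0.28 (SE 0.116, limma adjusted p = 0.2). The 15 tested genes of this mixed list had a median of 0.07.

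Ribosomal proteins that do not carry an Mrpl or Mrps name lay on both sides of 0, with a median of 0.07 over 5 genes. Dap3, a small-subunit protein that binds GTP, had a log2 fold change of 0.20 (SE 0.0806, limma adjusted p = 0.202) at 62.9 to 68.0 CPM in OP and 57.8 to 59.1 CPM in OR rats. Aurkaip1, also of the small subunit, had -0.24 (SE 0.0941, limma adjusted p = 0.183), with 130, 140 and 125 CPM in OP rats and 175, 148 and 160 CPM in OR rats. Chchd1 had 0.11 (SE 0.0842, limma adjusted p = 0.483).

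The 28 tested genes of ribosome assembly and rRNA modification had a median of 0.07. Rbfa, which matures the small subunit, had 0.34 (SE 0.109, limma adjusted p = 0.122), and 0.44 with an adjusted p of 0.025 without OP replicate 2. Mterf4, which targets an rRNA methyltransferase, had 0.33 (SE 0.123, limma adjusted p = 0.165) and Mrm2, an rRNA methyltransferase, 0.32 (SE 0.107, limma adjusted p = 0.141). The list of tRNA synthetases, which also held the amidotransferase genes Qrsl1, Gatb and Gatc, had a median of 0.07 over 19 tested genes. The smallest p-values of this list belonged to Fars2 with 0.28, Tars2 with 0.20 and Pars2 with 0.37 (limma adjusted p = 0.115, 0.17 and 0.319). These are the synthetases for phenylalanine, threonine and proline. The 17 genes of mitochondrial transcription and DNA maintenance had a median of 0.06. Polrmt, the mitochondrial RNA polymerase, had -0.24 (SE 0.092, limma adjusted p = 0.183), while Trmt10c and Elac2, which process mitochondrial transfer RNAs, had 0.26 and 0.22 (limma adjusted p = 0.168 and 0.235).

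**Figure D5:**
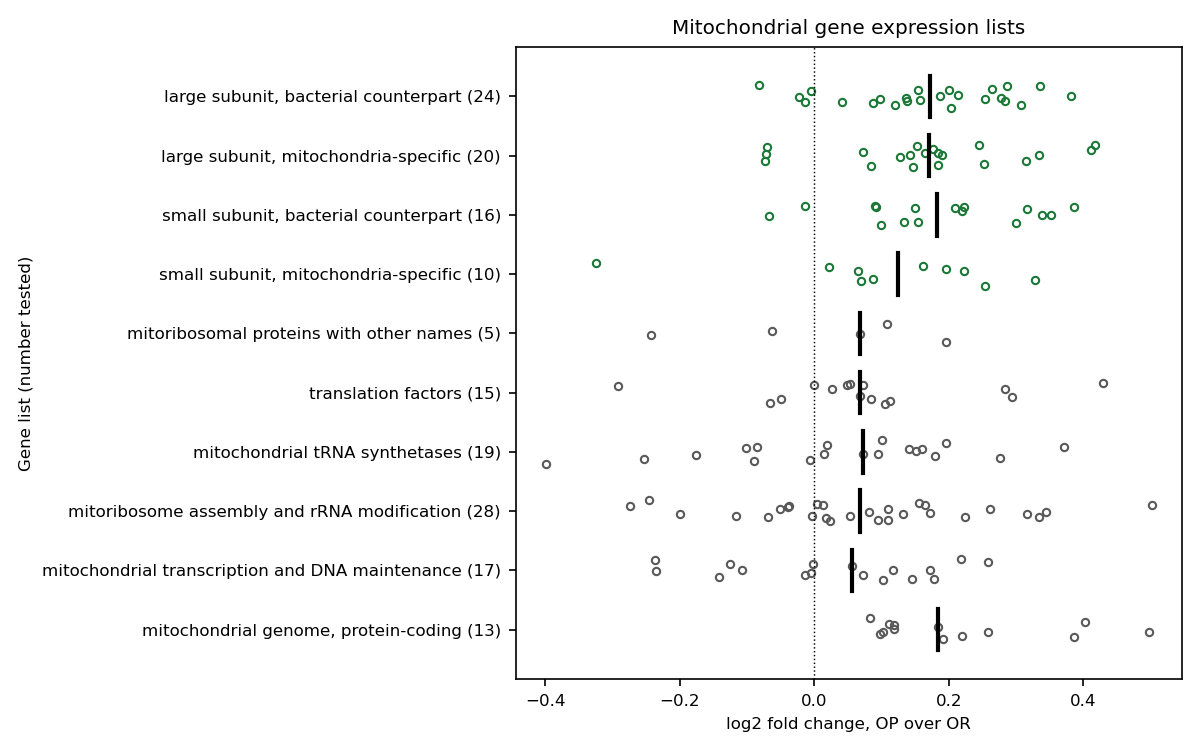
Log2 fold change, OP over OR (x axis), of each tested gene (circles) by list (y axis, number tested in parentheses), with the list's median as a black bar, members in green and other genes of mitochondrial expression in grey. The 4 lists of members have medians of 0.12 to 0.18, the 5 other nuclear lists 0.06 to 0.07 and the 13 genes of the mitochondrial genome 0.18.

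The products of this ribosome are encoded by 13 genes of the mitochondrial genome. All 13 had a log2 fold change above 0, with a median of 0.18, but 0 were called and 3 were higher at an unadjusted p under 0.05 with limma. They summed to 80090, 92110 and 74420 CPM in OP replicates 1, 2 and 3 and to 74340, 72440 and 81280 CPM in OR replicates 1, 2 and 3. The groups overlapped, and OP replicate 2 was the highest. Mt-nd6, chosen after its values were seen as the largest change of the list, stood at 2079, 2654 and 2025 CPM in OP rats and 1578, 1566 and 1771 CPM in OR rats. Its log2 fold change was 0.50 (SE 0.135, limma adjusted p = 0.0867).

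Markers of heart cell types were followed beside the members. The 8 cardiomyocyte markers had a median log2 fold change of 0.04 with 0 called, and 0 had an unadjusted p under 0.05 in limma. Of the Schwann cell markers, Sox10, a transcription factor of that lineage, was called higher, at 9.42 CPM in OP and 3.25 CPM in OR rats on average (log2 fold change 1.54, limma adjusted p = 0.0259). The 6 smooth muscle and pericyte markers summed to 740 to 941 CPM in OP and 636 to 704 CPM in OR rats, which did not overlap. All 6 had log2 fold changes above 0 with a median of 0.31, 5 were higher at an unadjusted p under 0.05, and 0 were called. The sum of the 5 endothelial markers, 1026 to 1184 CPM in OP and 800 to 991 CPM in OR rats, did not overlap either. Of these 5, 3 had log2 fold changes above 0, 2 were higher at an unadjusted p under 0.05 in limma, and 0 were called. Tie1 and Egfl7 had log2 fold changes of -0.06 and -0.02. Fibroblast markers (1203 to 1844 and 1285 to 1475 CPM), macrophage and leukocyte markers (61.9 to 94.5 and 74.5 to 84.5 CPM) and mesothelial markers (37.5 to 52.5 and 37.9 to 46.0 CPM) overlapped between groups, and of these genes Ptprc alone was called, lower in OP rats. Adipocyte markers summed to 0.85 to 6.55 CPM and 0.6 to 1.2 CPM, and none reached the level for a test. The part of other cell types in the members' values was not tested.

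Because most members had log2 fold changes above 0, the sequence before their starts is shown. NRF1 and proteins of the ETS family such as NRF2 (GABP) are known to activate many nuclear genes of mitochondria, and YY1 binds near the start of many genes of the translation machinery. RefSeq promoter windows of the GRCr8 build, 250 bases before to 50 bases after the start, were matched for 59 of 75 symbols. Letters were searched on both strands, overlaps allowed, as GCGCA and GCGC with 1 free base between them for NRF1, CCGGAAG for ETS and AANATGGCG for YY1. The 150 bases before the start of Mrps2, the called member, and of the 6 matched members with the NRF1 letters in that stretch are printed 5′ to 3′ on the strand of the gene, with NRF1 and ETS letters in capitals.
Mrps2, chr3:32200927-32201076 (plus strand): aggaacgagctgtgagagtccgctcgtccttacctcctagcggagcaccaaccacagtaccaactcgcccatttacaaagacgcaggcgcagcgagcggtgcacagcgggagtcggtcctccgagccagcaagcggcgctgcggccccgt
Mrpl44, chr9:88554900-88555049 (plus strand): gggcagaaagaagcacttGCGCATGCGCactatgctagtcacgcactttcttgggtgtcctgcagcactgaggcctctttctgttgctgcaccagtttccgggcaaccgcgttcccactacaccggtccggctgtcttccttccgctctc
Mrpl17, chr1:169575700-169575849 (minus strand): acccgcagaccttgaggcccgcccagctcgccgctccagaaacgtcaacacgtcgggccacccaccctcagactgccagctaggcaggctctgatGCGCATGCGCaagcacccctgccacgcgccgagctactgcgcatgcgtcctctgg
Mrpl32, chr17:55260501-55260650 (plus strand): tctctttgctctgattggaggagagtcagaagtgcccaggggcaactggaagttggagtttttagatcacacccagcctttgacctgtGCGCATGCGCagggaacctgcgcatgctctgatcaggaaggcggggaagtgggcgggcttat
Mrps18b, chr20:2842856-2843005 (plus strand): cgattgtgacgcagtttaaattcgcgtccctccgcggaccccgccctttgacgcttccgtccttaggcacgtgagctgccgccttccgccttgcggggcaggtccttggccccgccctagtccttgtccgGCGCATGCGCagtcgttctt
Mrpl45, chr10:82804889-82805038 (plus strand): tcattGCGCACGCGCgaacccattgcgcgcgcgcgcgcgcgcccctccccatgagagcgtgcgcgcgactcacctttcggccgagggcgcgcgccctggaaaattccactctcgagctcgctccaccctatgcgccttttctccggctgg
Mrpl57, chr15:36086307-36086456 (plus strand): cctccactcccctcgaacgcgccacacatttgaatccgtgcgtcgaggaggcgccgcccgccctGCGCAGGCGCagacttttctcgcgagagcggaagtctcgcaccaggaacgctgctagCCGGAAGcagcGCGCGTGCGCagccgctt

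The stretch before Mrps2 held none of these letters, while that before Mrpl44, next in order of p, held the NRF1 letters. Mrpl57, a large-subunit protein, had the NRF1 letters at 2 places with ETS letters between them, and its log2 fold change was 0.15 (SE 0.156, limma adjusted p = 0.612). Mrpl17, the counterpart of bacterial L17, had 0.16 (SE 0.0682, limma adjusted p = 0.224). Mrpl45, a large-subunit protein specific to mitochondria, had 0.08 (SE 0.0744, limma adjusted p = 0.541). Mrpl17, Mrpl45 and Mrpl57 were chosen for their sequence and not by the rule for naming genes given with the processing.

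In the full windows, NRF1 letters were found before 8 of 59 members (13.6%), against 9.87% of the 9817 windows of tested genes and 4.25% of all 33469 windows. ETS letters were found in 20 (33.9%), against 17.2% of tested genes and 8.75% of all. YY1 letters were found in 13 (22.0%), against 6.37% and 3.01%. The SP1 letters GGGCGG were less frequent than in tested genes, with 30 members (50.8%) against 62.2%, but more frequent than in all windows (33.1%). CCAAT letters were found in 26 (44.1%), against 37.2% of tested genes and 37.5% of all. These shares are descriptions, with no test, and a match is not a site.

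Members with and without the letters had close medians. The median log2 fold change was 0.20 in the 8 tested members with the NRF1 letters and 0.15 in the 48 without. With ETS letters it was 0.14 over 18 members and without them 0.18 over 38, and with YY1 letters 0.18 over 11 and without them 0.15 over 45. Mrps26, the lowest member at -0.33, had both NRF1 and ETS letters, outside the 150 bases before its start. The other members with NRF1 letters had log2 fold changes above 0. A start of another gene on the opposite strand within 1000 bases was annotated for 17 of 59 members (28.8%), against 16.1% of tested genes. The 12 tested partners that are not members had a median log2 fold change of 0.02, with 7 above 0 and 0 called, and 2 had an unadjusted p under 0.05. Mrps11, the counterpart of bacterial S11, and Mrpl46, of the large subunit, start head to head 234 bases apart. They had log2 fold changes of 0.30 (SE 0.112, limma adjusted p = 0.169) and 0.18 (SE 0.103, limma adjusted p = 0.327), and were chosen for this position.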

How the data were processed

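RNA from the hearts of 3 OP and 3 OR rats was sequenced, 1 library per rat, and all 6 libraries were used. TruSeq libraries were trimmed with Trimmomatic, mapped to Rnor 6.0 with STAR and counted per gene with HTSeq. The deposited values are a score: the authors scaled the reads of each gene so that a library summed to 20000000, and rounded up, so they are not raw counts. No source used here gives the strand setting. The number of sample columns left unused was 0, and 0 lines had no name.

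Reads were recovered from the steps of the values in Python 3.11.15 (pandas 2.3.3, NumPy 2.4.6). At the library total chosen for the best match, 99.75% to 99.88% of values above 0 came out as whole reads. Genes that reached 1 CPM in 3 or more libraries, 13445 in all, were fitted with limma 3.58.1 in R 4.3.3, with a mean-variance trend, on log2 of the value divided by its TMM factor (trims of 30% and 5%) plus 4, which is 0.2 CPM and understates the change of low genes. Factors were 0.953 for OP replicate 2 and 0.993 to 1.02 for the others. P-values were adjusted over all tested genes by the Benjamini-Hochberg method and called under 0.05. They set the difference between groups against the spread between these rats, which limma moderates over all tested genes. With 3 rats against 3 the smallest exact permutation p is 0.1, so no such test was made for sums. The limma fit, and no other step, was tried on simulated data. The planted changes were larger than that of any member, so the trial does not cover changes of the members' size.

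The members and lists were chosen with earlier results of these data known, and the lists come from general knowledge. Genes named were the called members, the 12 smallest p-values, the 4 highest and lowest fold changes and mean levels, untested members, stalk proteins and repeated symbols. From the other mitochondrial lists they were called genes and the 3 smallest p-values of each. Others are said to be chosen after their values were seen. Promoters and neighbours came from RefSeq on GRCr8, which is not the build of the authors. Of 70 tested members found in it, 18 overlap another gene and 21 have a named copy or pseudogene, so their reads may be shared. Alternatives were other scalings, voom on recovered reads, other filters (none, at least 10 reads in every library) and pseudocounts (1 and 20), robust variances, a block on the replicate number, and each library left out. A single marker gene is not reported here.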

Additional observations from a re-analysis of the deposited data

How the results depend on the processing

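The direction of the members held over all 15 alternatives. Between 59 and 65 of the members had a log2 fold change above 0, and the median was 0.117 to 0.192. The count with no filter, 65, also took in member lines near 0 that the main fit did not test. Every OP library lay above every OR library in 39 members with median-of-ratios factors and in 31 without rescaling. With a library left out the count was 39 to 45, but it could not fall below 39, because the TMM factors were kept. The share of all tested genes was not computed for the libraries left out. These counts, and that of members at an unadjusted p under 0.05, were followed after the data had been seen. The count of called members, 1, was 2 with median-of-ratios factors and with robust variances (Mrps2 and Mrpl44), and 0 without rescaling, with no filter and with a replicate block. Over the libraries left out it was 0 to 4. All genes called, 453, were 281 with the replicate block and 56 to 775 over the libraries left out, highest without OP replicate 2. Calls in the other mitochondrial lists, 1, were 0 to 3 over the libraries left out, with Tufm, Oxa1l and Rbfa called without OP replicate 2. Members higher at an unadjusted p under 0.05, 30, were 15 without rescaling, where the median of all genes was -0.046, and 14 to 26 over the libraries left out. Of 570 values of 38 named genes, 551 kept their direction and side of the threshold, 12 lost a call, 6 gained one, and Mrpl55 turned from -0.08 to 0.007 without OP replicate 1 (-0.18 to 0.007 over the libraries left out). The cause was not tested.

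Replicate numbers are shared by the titles of both groups, but the rats differ. Deviations from the group means correlated by 0.059, 0.075 and 0.127 between same-numbered libraries and by -0.17 to 0.079 between the others, so the numbers were not taken as pairs. Each tested member had 206 to 3544 reads per library, and there were 3 rats per group. The share of counting error in the spread between rats was not tested.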
